A study of Mus musculus with 15 samples.

Results

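Diaph3 and Prxl2a are 2 of the 55416 genes counted in whole blood RNA of 15 C57BL/6 mice, with 1 library per mouse. Both were chosen by their late neck dissection (ND) against early ND log2 fold change in these libraries, as strong falls in late ND, so every late ND against early ND value of these 2 genes describes the choice and carries no test. The 5 untreated mice had no drug and no surgery. The 5 early ND mice and the 5 late ND mice had 2 doses of αCTLA-4, an antibody that blocks an inhibitory receptor of T cells, and then an early or a late ND, the surgical removal of neck lymph nodes. The labels give all 15 mice the same orthotopic tongue tumor of 4MOSC1, a mouse oral squamous carcinoma line, grown for 10 days, also the untreated mice. The sources used here disagree on whether late ND mice were bled before or after their operation, so "late ND" names a group and not a state after surgery. Blood came from cheek bleeds, and nothing was sorted.

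Diaph3 encodes mDia2, a formin that small GTPases switch on. Formins nucleate and extend unbranched actin filaments, and mDia2 is known for its place at the contractile ring of dividing cells and for the division and enucleation of red cell precursors. Prxl2a encodes peroxiredoxin-like 2A, a redox protein with a thioredoxin-like fold that is related to the peroxiredoxins, which reduce peroxides through reactive cysteines. Young red cells without a nucleus, the reticulocytes, still carry RNA and lose it as they mature in the circulation. Whole blood RNA therefore mixes reticulocyte, leukocyte and platelet transcripts, and in such RNA fewer cells of a type and less RNA per cell cannot be told apart.

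Both genes lie on chromosome 14 and are read from the minus strand, 46.2 Mb apart. In GRCm39, Diaph3 (ENSMUSG00000022021, protein coding) spans 86892790 to 87378707 with 7.85 kb of exons, and Prxl2a (ENSMUSG00000021792, protein coding) spans 40715104 to 40735799 with 4.36 kb of exons. No exon of either gene overlaps an exon of another gene on either strand. The 300 bases around the RefSeq start of each gene are shown, with every match to the 6 motifs searched below in capitals. They cover 250 bases before and 50 after the start (GRCm38.p6, minus strand, read 5′ to 3′). The Diaph3 window is chr14:87141175-87141474, its only listed start. The Prxl2a window is chr14:41013784-41014083, the first of 5 listed starts. Each sequence also had 1 exact match on chromosome 14 of GRCm39, placing the start within 47 bases of the annotated 5′ end of Diaph3 and within 9 bases of that of Prxl2a.
Diaph3: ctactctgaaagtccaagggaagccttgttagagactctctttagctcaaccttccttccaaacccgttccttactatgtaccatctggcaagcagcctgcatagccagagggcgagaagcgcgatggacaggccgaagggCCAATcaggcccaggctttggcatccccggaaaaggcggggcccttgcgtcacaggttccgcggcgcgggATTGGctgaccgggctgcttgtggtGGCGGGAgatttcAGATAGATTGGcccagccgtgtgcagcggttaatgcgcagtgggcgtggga
Prxl2a: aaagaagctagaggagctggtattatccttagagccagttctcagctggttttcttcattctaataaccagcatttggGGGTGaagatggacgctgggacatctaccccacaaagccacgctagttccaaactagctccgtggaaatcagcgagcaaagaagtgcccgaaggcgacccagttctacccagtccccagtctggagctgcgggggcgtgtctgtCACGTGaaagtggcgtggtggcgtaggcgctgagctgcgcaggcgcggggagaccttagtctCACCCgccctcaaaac

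Each motif was searched on both strands. The Diaph3 window held 3 CCAAT boxes (CCAAT), 1 E2F-like motif (GGCGGGA) and 1 GATA motif (AGATAA, with A or T as its first letter and A or G as its last), which was directly followed by a CCAAT box. The Prxl2a window held none of these. It held 2 CACCC boxes (CACCC) and 1 E-box (CACGTG). Neither held the CHR motif (TTTGAA) of many mitotic genes. Among all 32851 promoter windows of the table, 37.4% held a CCAAT box, 11.3% the E2F-like motif, 29.8% a GATA motif, 57.5% a CACCC box, 7.15% the E-box and 17.9% the CHR motif. For the gene lists the first listed window of each gene was used. Over the first windows of 27025 genes the shares were 37.9% CCAAT box, 11.4% E2F-like, 30.2% GATA, 56.7% CACCC box, 7.24% E-box and 18.1% CHR. Of the cell cycle genes listed below, 35 had a window. Of these, 85.7% held a CCAAT box, 31.4% the E2F-like motif and 45.7% the CHR motif, while 20% held a GATA motif, 48.6% a CACCC box and 8.57% the E-box. Of the red cell genes, 43 had a window, and 79.1% of these held a CACCC box, 44.2% a GATA motif and 41.9% a CCAAT box. Of the same windows 11.6% held the E2F-like motif, 9.3% the CHR motif and 6.98% the E-box. These shares are descriptions of letters, and no binding was measured.

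Levels are CPM (counts scaled by library size) after scaling by trimmed mean of M values (TMM), which sets the libraries to a common level over most genes. The libraries held 5527108 to 13924361 gene counts. Diaph3 rested on 112 to 792 counts and Prxl2a on 1153 to 4744 counts in each library. The hemoglobin genes took 31.6% to 61.7% of gene counts in untreated, 38.3% to 64.1% in early ND and 14.9% to 29.3% in late ND libraries. Late ND libraries also held the most gene counts on average, and 3 libraries (untreated 2, late ND 2 and late ND 3) were poor in the 18S ribosomal RNA gene Rn18s-rs5, at under 1000 CPM of the library total. The hemoglobin share separates the late ND group from both others, so in this design group and hemoglobin share cannot be told apart.

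Diaph3 stood at 141, 55.1, 117, 62.7 and 20.2 TMM CPM in untreated mice 1 to 5 (mean 79.2 ± 48.9, SD, n = 5). In early ND mice 1 to 5 it stood at 52.1, 68.1, 46.3, 181 and 138 TMM CPM (97.1 ± 59.5, SD, n = 5). In late ND mice 1 to 5 it stood at 15.8, 18.5, 12.7, 16.2 and 7.07 TMM CPM (14.1 ± 4.41, SD, n = 5). Every late ND mouse lay below every untreated and every early ND mouse, although untreated 5 was just above late ND 2. The untreated and early ND mice overlapped over most of their range. Untreated 1 and 3 and early ND 4 and 5 were high.

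Prxl2a was the more abundant of the 2 genes, also per length, at 153 TMM CPM per kb of exon in untreated mice against 10.1 for Diaph3. Its level was 1370, 296, 788, 621 and 258 TMM CPM in untreated mice 1 to 5 (666 ± 451, SD, n = 5). In early ND mice 1 to 5 it was 159, 478, 461, 1110 and 1040 TMM CPM (649 ± 409, SD, n = 5). In late ND mice 1 to 5 it was 136, 94.5, 65.4, 134 and 72.8 TMM CPM (101 ± 33.3, SD, n = 5). The late ND mice were again the lowest 5 of the 15, with early ND 1 just above late ND 1. The same 4 mice that were high in Diaph3 were the highest 4 in Prxl2a.

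**Figure D1:**
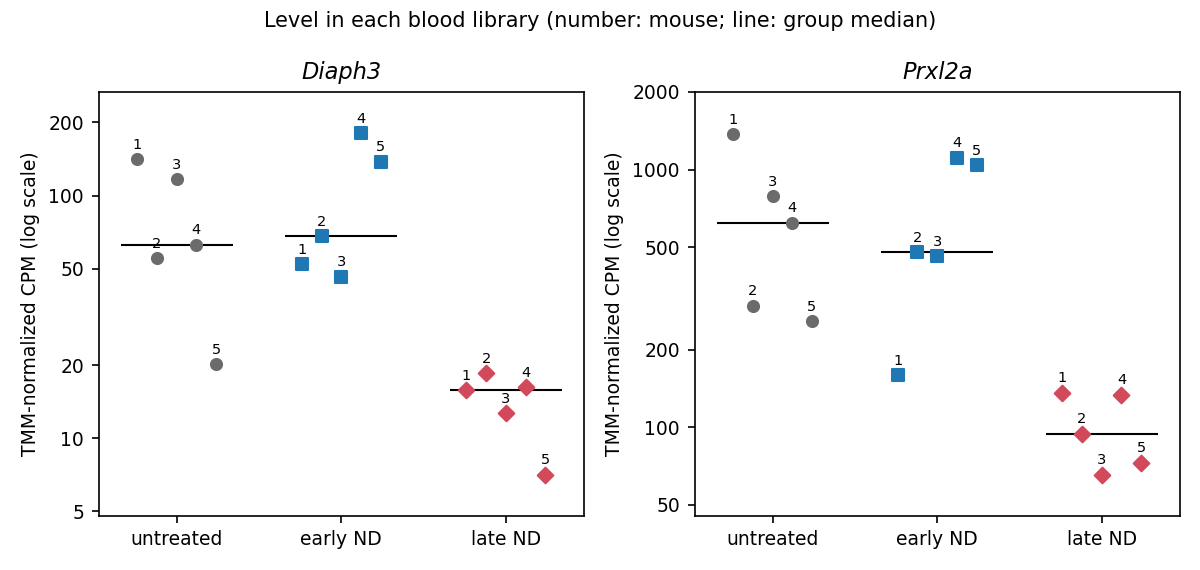
TMM-normalized CPM (log axis) of Diaph3 and Prxl2a in each library, by group; each point is 1 mouse with its number and each line a group median. Late ND libraries sit at 7.07 to 18.5 for Diaph3 and at 65.4 to 136 for Prxl2a, below the 10 others.

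The order of the group means was early ND, untreated, late ND for Diaph3 and untreated, early ND, late ND for Prxl2a. The first neighbours in each order did not differ beyond their spread. Early ND minus untreated was 0.29 on the log2 scale for Diaph3 (SE 0.48, adjusted p = 0.964, edgeR quasi-likelihood test) and -0.04 for Prxl2a (SE 0.52, adjusted p = 0.997, same test). That comparison called 0% of 12151 genes, with 256 genes higher and 283 lower at an unadjusted p under 0.05, and DESeq2 also called 0. Spread within a group was wide, with an SD of 61.8% of the mean for Diaph3 and 67.7% for Prxl2a in untreated mice, against 31.4% and 33.1% in late ND mice. With library totals that contrast was gone for Diaph3 (37.6% against 37.9%) and smaller for Prxl2a (29.0% against 23.7%).

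Late ND minus untreated was -2.46 on the log2 scale for Diaph3 (SE 0.43, 5.52 times lower) and -2.73 for Prxl2a (SE 0.43, 6.62 times lower). The groups did not overlap for either gene, as for 2.81% of all genes on the lower side. Both were called lower by the edgeR quasi-likelihood test, each with adjusted p = 0.0242, in a comparison that called 2.01% of 13547 genes lower. The late ND libraries are those on which the genes were chosen, so this is not independent of the choice. Both calls were lost without untreated 3 (adjusted p = 0.0712 in edgeR for each gene), without any 1 of the 5 late ND libraries (0.0526 without late ND 4 to 0.064 without late ND 5) and without the 3 libraries poor in 18S (0.124 for Diaph3 and 0.107 for Prxl2a), while the log2 differences stayed at -2.28 or lower in these fits. With the hemoglobin share as a covariate they were -1.04 and -0.80 (adjusted p = 0.95 and 0.941, edgeR).

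Late ND minus early ND was -2.74 on the log2 scale for Diaph3 (SE 0.40, 6.69 times lower) and -2.67 for Prxl2a (SE 0.45, 6.35 times lower). These put the genes 12th and 13th from the lowest of 13315 genes tested, of which 2.48% were called lower and 2.46% did not overlap between the groups and were lower. Leaving out genes that averaged under 50 counts or whose groups overlapped, the neighbour just below them was Cyp4b1-ps2 at -2.78, and just above them came Bnip3l-ps at -2.64, both pseudogenes by name with all of their exons overlapping another gene on their strand. Tmcc2 stood a little higher, at -2.62. By rank the 2 genes were among the largest falls without being the largest.

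Scaling changed the size of these differences. Divided by library totals alone, Diaph3 had 20 to 73.4 CPM in untreated, 47.1 to 99.1 in early ND and 12 to 35.2 in late ND mice, so late ND and untreated overlapped at untreated 5. Prxl2a had 256 to 581, 185 to 744 and 107 to 191 CPM on that scale, so late ND and early ND overlapped at early ND 1. The late ND minus early ND differences were then -1.70 and -1.63 on the log2 scale, while the median of all genes moved to 0.86, so relative to the median gene both were lower by more than these values. Against untreated they were -1.30 and -1.52, with the median of all genes at 0.91.

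The 2 genes moved together across libraries. Over all 15 libraries the Spearman rho of their log2 TMM CPM was 0.96 (Pearson r = 0.94), over deviations from the group means it was 0.88, and over the 10 untreated and early ND libraries it was 0.92. All such correlations share the library, its depth and its TMM factor, and the factor itself had rho = -0.90 with Diaph3 and -0.95 with Prxl2a. The ratio of the counts, which needs no scaling, ran from 3.06 Prxl2a counts per Diaph3 count in early ND 1 to 12.8 in untreated 5. Its group means were 8.90 ± 2.92 in untreated, 6.74 ± 2.50 in early ND and 7.48 ± 2.28 in late ND mice (SD, n = 5 each). The 3 groups overlapped in this ratio, and the extremes were single mice.

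Red cell genes followed both members closely. The red cell score was the mean log2 TMM CPM of 58 genes for the red cell membrane, heme and iron, erythroid transcription factors, and the maturation and clearance of red cells. It was 5.99 ± 0.55 in untreated, 6.05 ± 0.54 in early ND and 4.90 ± 0.17 in late ND mice (SD, n = 5 each). Its Spearman rho with Diaph3 was 0.943 (Pearson r = 0.933) and with Prxl2a 0.996 (r = 0.990) over 15 libraries. Over the 10 libraries that were not late ND, rho was 0.915 and 1.00, and over deviations from group means 0.818 and 0.968. Without untreated 1 and early ND 4, the libraries farthest from the median score, r was 0.909 and 0.987. Scaled by library totals instead, rho was 0.48 and 0.47, and the cause of that drop was not tested.

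**Figure D2:**
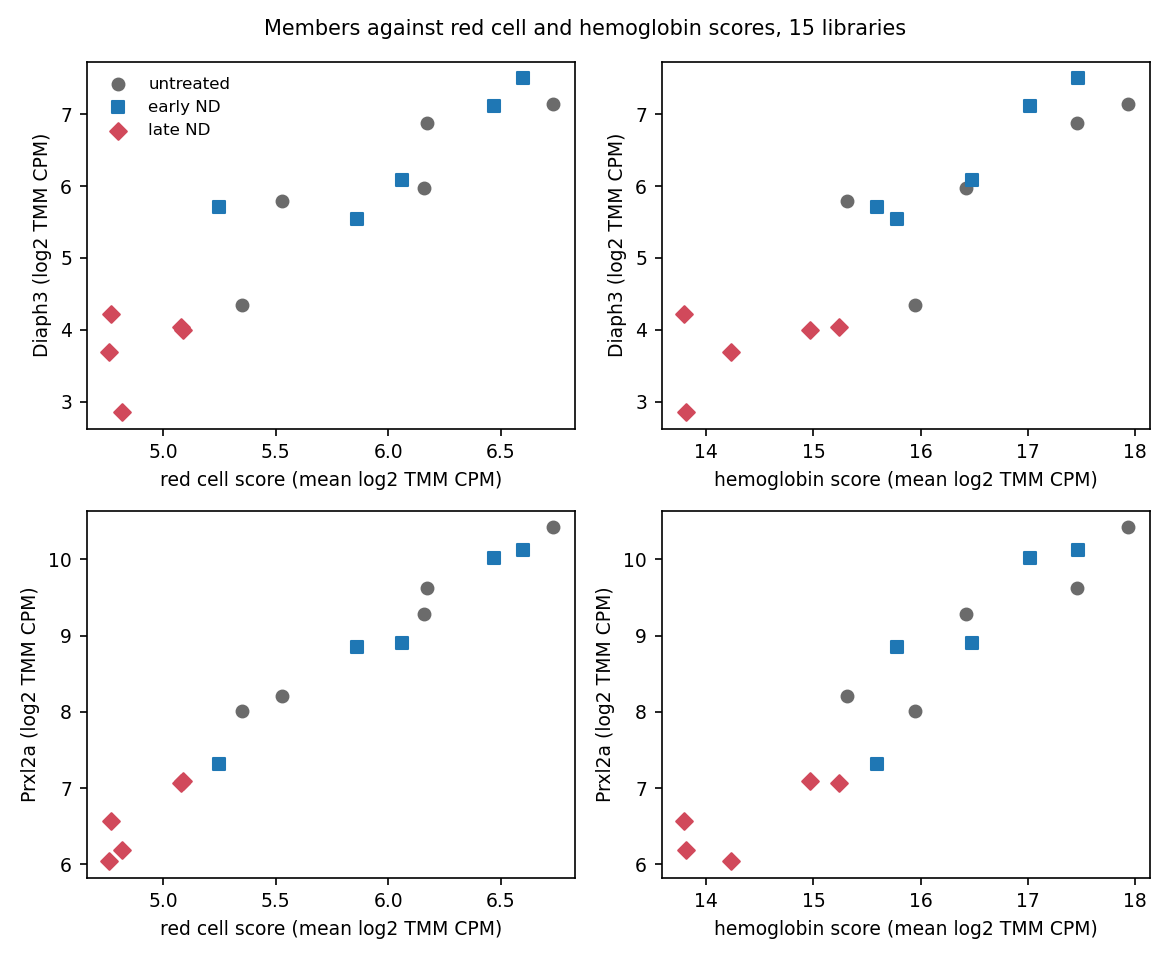
Log2 TMM CPM of Diaph3 (top) and Prxl2a (bottom) against the red cell score (left) and the hemoglobin score (right), each the mean log2 TMM CPM of its genes; each point is 1 of 15 libraries, coloured by group. Points run along 1 line for Prxl2a and the red cell score (rho 0.996), and late ND libraries take the low end of each panel.

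The lists that make up this score differed. The members were chosen as low in late ND, so every rho over 15 libraries, here and below, also carries that choice. The maturation and clearance list (15 of its 18 genes passed the filter on low counts, and Ahsp was not matched by name) had a median rho of 0.92 with Diaph3 and 0.97 with Prxl2a, with 14 of 15 genes positive. Among its most abundant genes were Bpgm, which makes the 2,3-bisphosphoglycerate of red cells, Ube2l6, a ubiquitin-like conjugating enzyme, and Mkrn1, a ubiquitin ligase. They reached rho of 0.96 to 0.97 with Diaph3 and 0.98 to 0.99 with Prxl2a. Ulk1, an autophagy kinase, went the other way, at rho = -0.80 and -0.71. Over deviations from group means the list medians of rho were 0.77 and 0.94. Of the 15 genes 12 were called lower and 0 higher in late ND against early ND (median log2 difference -2.26), beside 2.48% lower and 2.5% higher among all genes tested (with DESeq2 size factors, 201 higher and 338 lower in place of 333 and 330). Against untreated 10 of 15 were called lower (median -2.21), beside 2.01% of all genes. Every call against untreated, here and in the lists that follow, was lost without untreated 3, late ND 1, 4 or 5, or the 3 libraries poor in 18S, and with the hemoglobin share in the fit, where edgeR called no gene at all. Against early ND, every lower call in this and the following lists was lost without late ND 2 and 3, both poor in 18S. That fit called 4 genes higher and 0 lower. With the hemoglobin share in the fit 0 genes were called against early ND.

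The membrane and skeleton list was alike, with 16 of 17 genes passing the filter and all 16 positive (median rho 0.89 with Diaph3 and 0.93 with Prxl2a). Slc4a1, the anion exchanger band 3, had rho = 0.94 and 0.99. Epb41, the skeletal protein 4.1, and Cd24a, a surface glycoprotein, had 0.91 each with Diaph3 and 0.95 and 0.97 with Prxl2a. Gypc, glycophorin C, was the weakest at 0.44 and 0.36. Over deviations from group means the list medians of rho were 0.68 and 0.85. In late ND against early ND 13 of 16 were called lower (median log2 difference -2.34), and in late ND against untreated 11 of 16 (median -2.14). Among all genes 2.48% and 2.01% were called lower. The 4 hemoglobin genes had rho of 0.87 to 0.94 with Diaph3 and 0.91 to 0.96 with Prxl2a, and only Hbb-bt passed the test in late ND against early ND (adjusted p = 0.0392, edgeR), at medians of -2.05 for the list there and -2.40 against untreated, where none of the 4 passed.

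Heme and transcription factor genes were mixed. Of 15 heme and iron genes, Alas2, the first enzyme of heme synthesis in red cells, Fech, the last one, and Ftl1, ferritin light chain, had rho of 0.96 to 0.97 with Diaph3 and 0.95 to 0.97 with Prxl2a. The list as a whole had medians of 0.30 and 0.49, from -0.79 and -0.83 upward, and of 0.13 and 0.25 over deviations from group means. Against early ND 4 were called lower (Alas2, Fech, Ftl1 and the mitochondrial iron importer Slc25a37) and 1 higher, Ppox, another enzyme of the pathway. The median log2 difference of the list was -0.49, but with library totals 4 of 15 genes rather than 11 lay below 0. Of 12 transcription factors, Lmo2, an adaptor of the erythroid GATA and TAL complex, had rho = 0.98 with Diaph3 and 0.95 with Prxl2a and was the 1 called lower in both late ND comparisons. E2f2 had 0.63 and 0.72, and Nfe2 had 0.01 and 0.11. With library totals the log2 difference of Lmo2 was -0.14 against early ND and 0.02 against untreated. Of the 12 factors 1 and 0 then lay below 0, in place of 9 and 9. That scaling also moved the median of all genes to 0.86 and 0.91, so relative to the median gene Lmo2 stayed lower in both. The counts below 0 on that scale, also for the heme list, share this shift. Among all genes 2.48% were called lower and 2.5% higher against early ND, and 2.01% lower against untreated. Klf1, an erythroid master factor, did not pass the filter.

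Within a library the members can be set against red cell genes with next to no effect of the scaling factor. Against the red cell score of all 58 genes, Prxl2a stood at 3.12 ± 0.46 log2 units in untreated, 2.99 ± 0.60 in early ND and 1.69 ± 0.34 in late ND mice (SD, n = 5 each), with every late ND library below every other (2.07 or higher). Diaph3 stood at 0.04 ± 0.67, 0.34 ± 0.49 and -1.14 ± 0.51, with untreated 5 the lowest of the other libraries and within the late ND range. Against the hemoglobin score, Diaph3 stood at -10.59 ± 0.75 log2 units in untreated, -10.08 ± 0.22 in early ND and -10.65 ± 0.65 in late ND mice (SD, n = 5 each). Prxl2a stood at -7.51 ± 0.39, -7.43 ± 0.54 and -7.82 ± 0.41 on that measure. The groups overlapped for both genes. Against the membrane and skeleton score, Prxl2a was 4.25 ± 0.21 in untreated, 4.11 ± 0.24 in early ND and 3.53 ± 0.16 log2 units in late ND mice, with late ND (3.35 to 3.68) below the others (3.83 or higher). Diaph3 was 1.17 ± 0.56, 1.46 ± 0.54 and 0.70 ± 0.50 on it, with overlap. Against the maturation and clearance score Prxl2a was 1.38 ± 0.21, 1.21 ± 0.45 and 0.42 ± 0.27, and Diaph3 -1.70 ± 0.47, -1.44 ± 0.40 and -2.40 ± 0.45 log2 units. There late ND 1, 2 and 4 lay above early ND 1 for Prxl2a, and for Diaph3 late ND 2 lay within both other groups and late ND 3 just above untreated 5. The members were chosen as strong falls in late ND, so low late ND ratios describe that choice and carry no test. Part of the 58-gene score came from lists that fell little in late ND against early ND. Their median log2 differences were -0.18 for transcription factors and -0.49 for heme and iron. The ratios to the 3 single lists were chosen after the values were seen.

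Cell cycle genes followed the members through only part of their number. The cell cycle score of 31 genes had rho = 0.854 with Diaph3 and 0.896 with Prxl2a over 15 libraries, but -0.34 and -0.66 when scaled by library totals, so its direction turned with the scaling. Within the 10 libraries that were not late ND rho was 0.648 and 0.685 under TMM, and over deviations from group means 0.371 and 0.514. The score split into its phases. S phase genes (19 measured) gave rho = 0.557 and 0.507 over 15 libraries but 0.103 and -0.139 within the 10 and -0.111 and -0.100 over deviations. G2 and mitosis genes (12 measured) gave 0.846 and 0.929 over 15, 0.661 and 0.818 within the 10, and 0.607 and 0.821 over deviations. All values in these 3 sentences are under TMM. Over 15 libraries the S phase values lay inside the 5th to 95th percentiles of all other genes (-0.7 to 0.74 with Diaph3, -0.65 to 0.71 with Prxl2a).

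**Figure D3:**
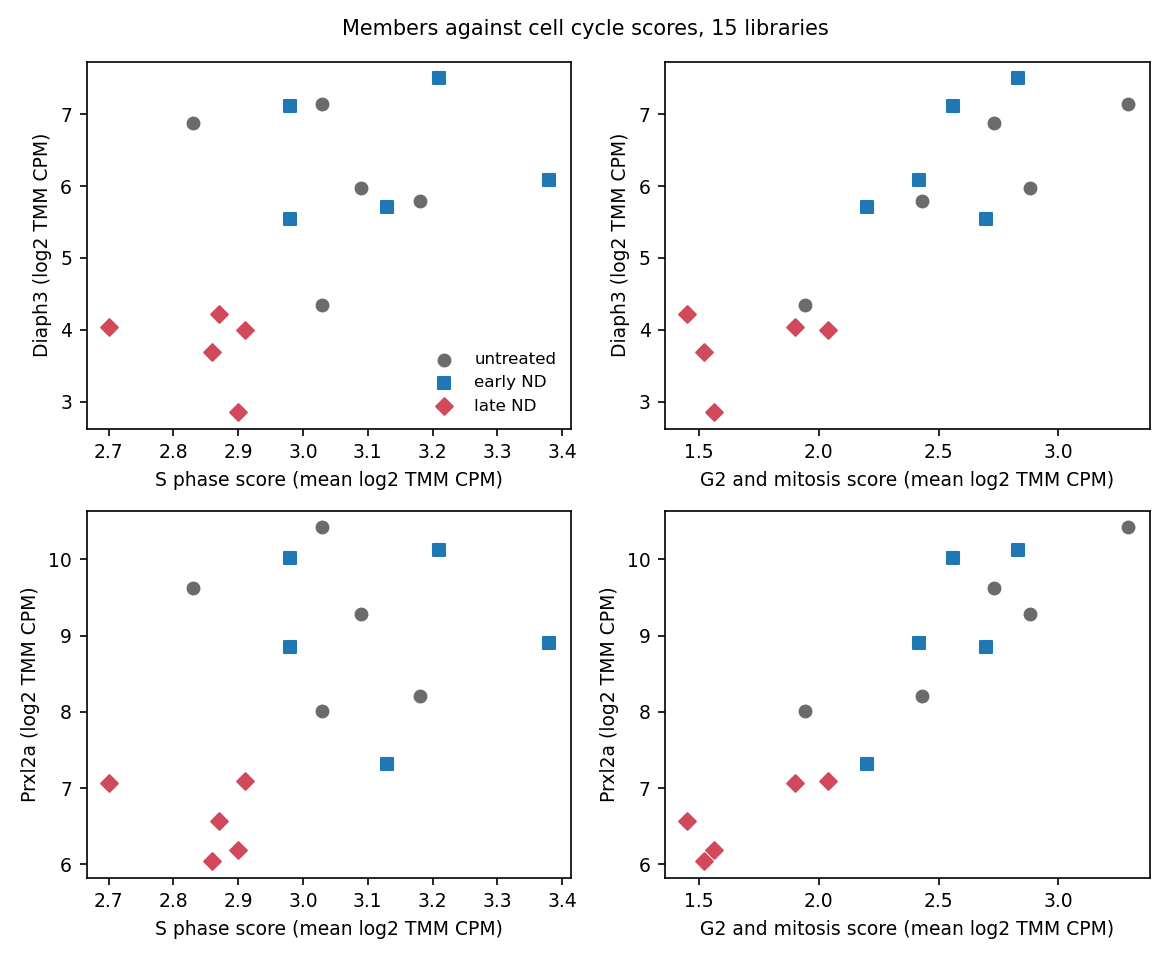
Log2 TMM CPM of Diaph3 (top) and Prxl2a (bottom) against the S phase score (left) and the G2 and mitosis score (right) in 15 libraries, coloured by group. The G2 and mitosis panels rise from left to right (rho 0.846 and 0.929 under TMM scaling), while the S phase panels show no order among the 10 libraries that are not late ND; with library totals the correlation with the cell cycle score of both lists turned negative.

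Few G2 and mitosis genes carried this. Of 20 listed, 12 passed the filter on low counts, and Cdk1, Ccnb1, Bub1, Plk1, Ttk, Pbk, Hmmr and Cenpf did not. Ube2c, which loads ubiquitin for the anaphase-promoting complex, had rho = 0.95 with Diaph3 and 0.99 with Prxl2a. Nusap1, a spindle protein, had 0.98 and 0.99. Mki67, the proliferation marker, had 0.57 and 0.62, and Ccna2, cyclin A2, had 0.87 and 0.94. Top2a was lower in both (0.44 and 0.50), and Cdc20 and Bub1b were at or below 0 (-0.12 and -0.14 with Diaph3, -0.01 and -0.15 with Prxl2a). In late ND against early ND 4 of 11 were called lower (Ube2c at -2.39, Nusap1 at -2.53, Ccna2 at -1.48 and Tpx2 at -1.56 on the log2 scale), with a list median of -0.99, but with library totals only 6 of the 12 genes lay below 0. In late ND against untreated 3 of 12 were called lower (median -0.66). S phase genes gave 1 call of 18 (Rrm2, lower, median -0.29) and 0 of 19. Among all genes 2.48% were called lower against early ND and 2.01% against untreated. With library totals 1 of 19 S phase genes lay below 0 against early ND in place of 16, and 0 of 19 against untreated in place of 14. The median of all genes moved to 0.86 and 0.91 on that scale. Its counts below 0, also for G2 and mitosis genes, are therefore not set against the median gene. Pcna, the DNA clamp, had rho = 0.60 and 0.52 over 15 libraries but -0.08 with each member within the 10 that were not late ND.

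Genes of cytokinesis and GTPase signaling had no common relation to either member. Over 23 cytokinesis and GTPase signaling genes the score had rho = -0.036 with Diaph3 and 0.036 with Prxl2a over 15 libraries. Its most abundant genes, Myh9 (non-muscle myosin heavy chain), Pfn1 (profilin), Cfl1 (cofilin) and Rac2 (a GTPase of blood cells), had rho of -0.57 to -0.19 with Diaph3. In each late ND comparison 1 of 23 was called lower, Birc5 (survivin, a part of the chromosomal passenger complex, at -1.49 and -1.26), and the list medians were 0.04 and 0.03. Among all genes 2.48% were called lower against early ND and 2.01% against untreated.

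Among the formins Diaph3 had the lowest log2 difference by construction of the choice. In level per kb in untreated mice it stood at 10.1 ± 6.23 TMM CPM per kb (SD, n = 5), below Fmnl1 at 54.9 ± 9.99 and Diaph1 at 22.2 ± 4.18 and next to Fhod1 at 8.08 ± 1.67. In late ND mice it was at 1.79 and Fmnl1, Diaph1 and Fhod1 at 75.2, 27.9 and 11.3 TMM CPM per kb. Late ND minus early ND was 0.57 for Fhod1 and 0.54 for Fmnl1, both called higher, and 0.54 for Diaph1 and 0.49 for Diaph2, which did not pass. Those 4 directions were the same under every scaling tried. Library totals moved the median of all genes to 0.86, so that scaling could hardly turn a difference above 0. Daam1 (-0.27) and Fmnl3 (-0.21) turned to above 0 with it. Inf2 (0.15), Fmnl2 (-0.14) and Fmn1 (0.94) did not pass either. Fhdc1, a formin of the inverted kind tied to microtubules, was the 1 other formin low in late ND, at -1.31 against early ND (adjusted p = 0.0539, edgeR) and -1.14 against untreated (called, adjusted p = 0.0268, edgeR). It had rho = 0.82 with Diaph3 and 0.90 with Prxl2a. The list without Diaph3 gave 2 higher and 0 lower of 10 against early ND, and 0 higher and 1 lower of 11 against untreated. Among all genes 2.5% were called higher and 2.48% lower against early ND, and 0.989% and 2.01% against untreated. Fhod3, Fmn2 and Grid2ip had at most 4 counts in a library, and Daam2, at most 36, passed the filter only in late ND against untreated (0.40, not called).

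Peroxiredoxin and thiol antioxidant genes split into those that moved with Prxl2a and those that did not. Prxl2b and Prxl2c, its 2 named relatives, were at 0.257 and 3.43 TMM CPM per kb in untreated mice against 153 for Prxl2a, and late ND minus early ND was -0.16 and -0.07 for them, neither called. Of the 6 peroxiredoxins proper, Prdx2, the abundant red cell peroxiredoxin, was called lower (-2.06, adjusted p = 0.0292, edgeR) and had rho = 0.97 with Prxl2a. Prdx1 (0.06), Prdx3 (-0.15), Prdx4 (0.15), Prdx5 (0.56) and Prdx6 (-0.35) were not called. Glrx5, a mitochondrial glutaredoxin of iron-sulfur cluster assembly, was at -2.16 (rho 0.99), Gpx1, a glutathione peroxidase, at -1.67 (0.93), Cat, catalase, at -1.51 (0.92) and Txnrd2, the mitochondrial thioredoxin reductase, at -1.26 (0.96), all called lower and lower under every scaling tried. Gsr, Txn1 and Glrx were at 0.75, 0.67 and 0.86, and Txn2, Txnrd1, Gpx4, Srxn1, Sod1 and Sod2 between -0.64 and 0.24, none called. In all 5 of 21 genes were called lower in each late ND comparison, with list medians of -0.15 and -0.37. Among all genes 2.48% were called lower against early ND and 2.01% against untreated. Against early ND, 14 of the 21 lay below 0 under TMM and 5 with library totals, where the median of all genes moved to 0.86. The median rho of the 21 genes with Prxl2a was 0.46 over 15 libraries and 0.07 over deviations from group means.

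**Figure D4:**
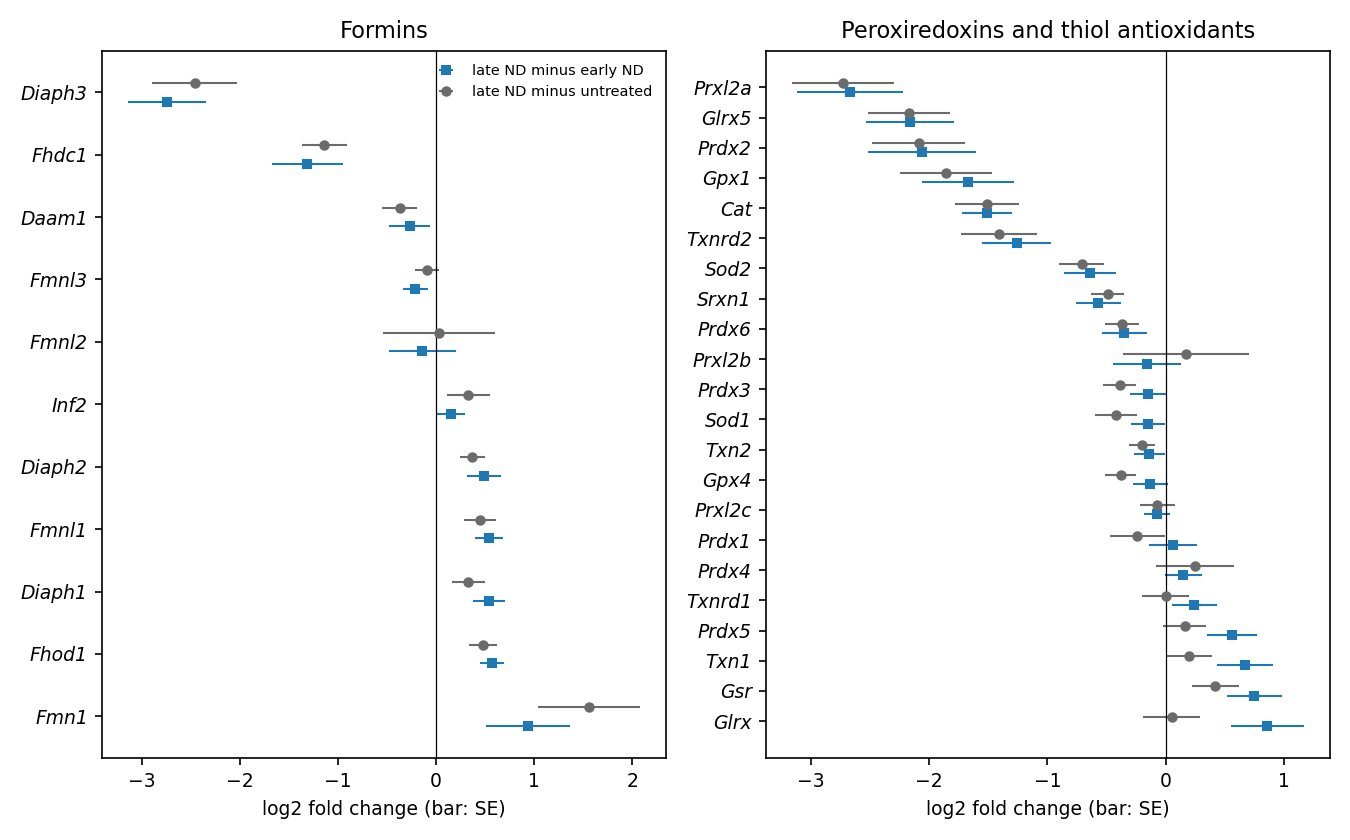
Log2 fold change with its SE for the formins (left) and the peroxiredoxin and thiol antioxidant genes (right) that were tested, late ND minus early ND (squares) and late ND minus untreated (circles), under TMM scaling. Diaph3 and Prxl2a lie at the far left of their lists at -2.74 and -2.67, with Fhdc1 and the group from Glrx5 to Txnrd2 next.

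The genes most like each member were sought among 8454 genes that averaged 50 counts or more and share no exon with a neighbour on their strand. Among the nearest to Diaph3 were Bola3, Pabpc1, Ubac1 and Gm10244 (rho 0.982 each), Nusap1, Hscb and Lmo2 (0.979 each), and Slc25a39 and Cdr2 (0.975 each), all over 15 libraries. Bola3 and Hscb serve iron-sulfur cluster assembly, and Pabpc1 binds poly(A) tails. Over deviations from group means these 9 genes kept rho of 0.84 to 0.96. Nearest to Prxl2a were Atg4a and Tspan33 (0.993 each), Ube2c, Glrx5, Tfdp2, Bpgm, Ghitm, Plaat3 and Tspo2 (0.989 each) and Marchf5 (0.986), with 0.96 to 0.98 over deviations. Atg4a is an autophagy protease, Tspan33 a tetraspanin, and Tfdp2 a partner of E2F factors. The lists of 10 shared 0 genes, although Prxl2a ranked 42nd for Diaph3 and Diaph3 99th for Prxl2a. Of the genes just listed, all but Hscb, Cdr2, Glrx5, Tfdp2, Bpgm and Plaat3 share part of their exon length with a gene on the other strand, a fraction of 0.551 for Gm10244, 0.190 for Ube2c and 0.0401 for Nusap1, and the counting strand is not given in the sources used here.

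Markers of other blood cells had relations of either sign with the members. Over 15 libraries the 5th and 95th percentiles of rho among the 13420 other genes were -0.7 and 0.74 with Diaph3. With Prxl2a they were -0.65 and 0.71. Over deviations they were -0.58 and 0.65, and -0.54 and 0.65. Apart from the T cell score with Diaph3 over 15 libraries, the score values below lay inside these ranges. Under TMM, T cell genes ran with both, at rho = 0.796 for Diaph3 and 0.671 for Prxl2a over 15 libraries with all 11 genes positive, but at 0.461 and 0.200 over deviations. Platelet genes gave 0.607 and 0.614 (0.171 and 0.182 over deviations) and B cell genes 0.471 and 0.289 (0.250 and -0.014 over deviations). With library totals 0 of the 11 T cell, 9 B cell and 11 platelet genes lay below 0 in late ND against early ND, in place of all of them under TMM. The median of all genes moved to 0.86 on that scale. Neutrophil genes gave -0.407 and -0.243 (-0.161 and 0.036 over deviations). Monocyte genes gave -0.486 and -0.425 with 0 of 11 genes above 0, but the sign turned once the group difference was removed, to 0.186 and 0.414 over deviations and 0.406 and 0.491 over the 10 libraries that were not late ND. Monocyte genes were called higher in late ND mice for 5 of 11 in each comparison, beside 2.5% and 0.989% of all genes, among them Fn1 at 1.64 and Csf1r at 0.75 on the log2 scale against early ND. Skin and gland genes gave -0.607 and -0.411, and -0.461 and -0.154 over deviations (5 of 12 passed the filter, Scd3 most abundant). The part of other cells in the members' levels was not tested.

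**Figure D5:**
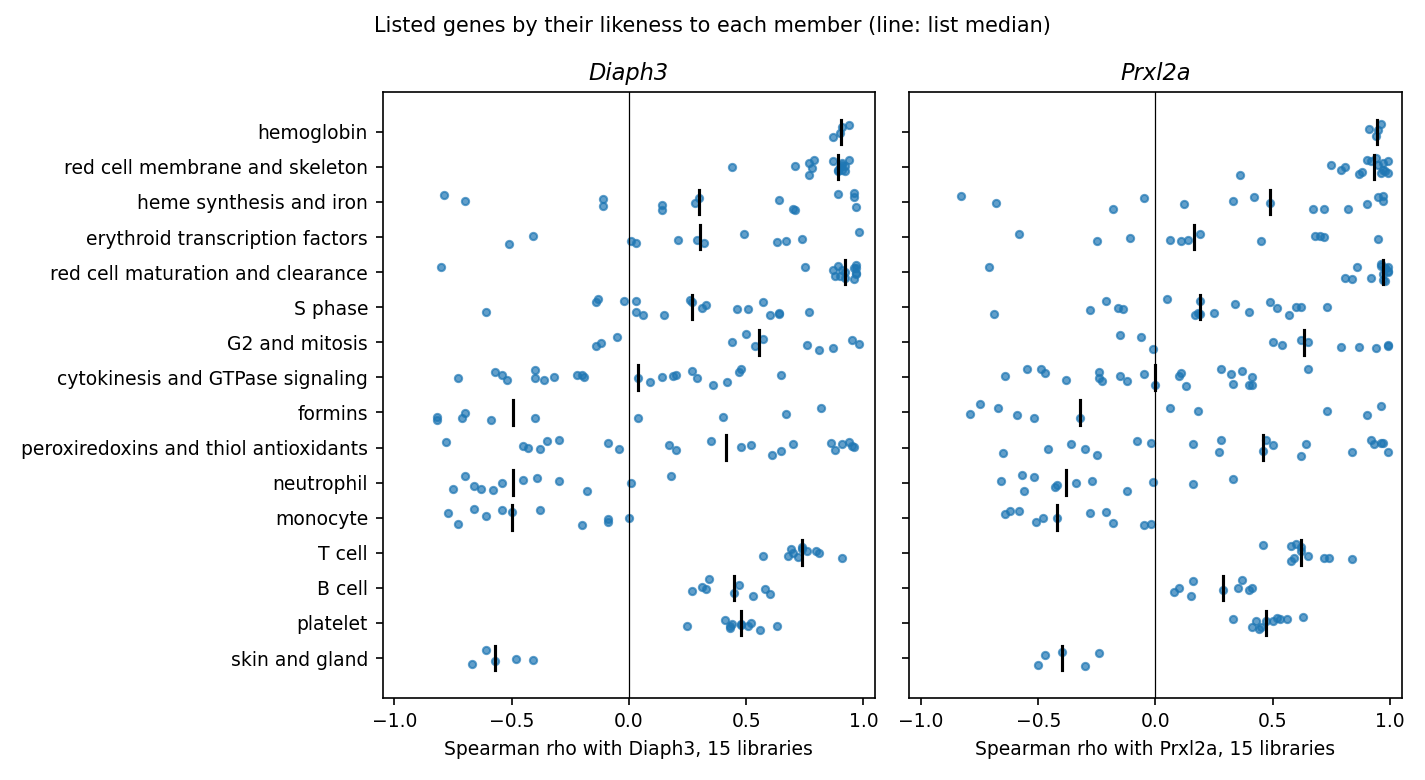
Spearman rho over 15 libraries between each listed gene (point) and Diaph3 (left) or Prxl2a (right), by list, under TMM scaling, with the list median as a line. The hemoglobin, membrane and maturation lists have medians of 0.89 to 0.97, and G2 and mitosis genes spread from -0.15 to 0.99. Formins, neutrophil genes, monocyte genes, and skin and gland genes have medians below 0. Over deviations from group means the medians with Diaph3 and Prxl2a are 0.12 and 0.34 for monocyte genes and -0.2 and -0.22 for formins. They are -0.16 and -0.02 for neutrophil genes and -0.39 and -0.18 for skin and gland genes.

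Hemoglobin share, depth and 18S content also ran with the members. Over 15 libraries the hemoglobin share of gene counts had rho = 0.93 with Diaph3 and 0.95 with Prxl2a, and 0.84 and 0.87 over the 10 that were not late ND. Gene counts per library had -0.79 and -0.84 (-0.59 each over the 10). Rn18s-rs5 had 0.58 and 0.71, and 0.01 and 0.30 over the 10. Which of these measures a difference in the members goes with was not tested beyond the covariate fit given above.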

How the data were processed

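Whole blood RNA of 15 mice was sequenced, and per the study's methods the authors aligned read pairs with STAR 2.7.9 to GRCm39 (the submitters' processing notes also name mm10), sorted them with samtools 1.7 and deposited raw counts per gene from HTSeq 0.13.5, with no normalization. The annotation release and the strand setting are not given in the sources used here. The authors used DESeq2 for pairwise comparisons. Here, of 55416 gene identifiers, 54749 were matched to GENCODE vM39. Each pair of groups (5 against 5) was fitted across all genes that passed filterByExpr with edgeR 4.0.16 (TMM, glmQLFit and glmQLFTest, R 4.3.3), calling genes at a Benjamini-Hochberg adjusted p under 0.05, and DESeq2 1.42.0 was an alternative. The mice are the replicates, and p-values weigh a group difference against the spread between them. Log2 CPM for scores and correlations used a prior count of 2. Scores average the listed genes that passed the filter over all 15 libraries (13421 genes), without the members, and correlations over libraries are given without a p-value. Deviations are a gene's or score's values minus the mean of their group.

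Promoter windows are RefSeq's (GRCm38.p6), and the edgeR fit and the ranking by likeness were tested on simulated data. The members and the gene lists were chosen with earlier results of these data known. Named genes were the members, all formins and peroxiredoxin genes, the 2 to 4 most abundant genes of every other list, and the 10 most like each member. Genes outside that rule, such as Ulk1, Gypc, Ppox, Slc25a37, Klf1, Tpx2, Cdc20, Bub1b, Rrm2 and Birc5, were named after their values were seen, as were the genes next to the members in size of fall. Some genes that the rule names are not reported here. The alternatives were other scalings, filters and a covariate, DESeq2, 1 fit over all libraries, a replicate block, and leaving out libraries. The library depths of 5527108 to 13924361 counts limit the rarest genes named, not the members.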

Additional observations from a re-analysis of the deposited data

Results flagged for a closer look

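Of 24 sets of 5 libraries examined for a single library far from the rest (the members' levels, the red cell and cell cycle scores, and the members relative to the red cell score and to each other, in each group), 1 was flagged, and about 1 in 20 are by chance alone. The cell cycle score of late ND 1 was 2.57 (mean log2 TMM CPM), while the other 4 late ND libraries lay between 2.32 and 2.39. Neither Diaph3 (15.8 TMM CPM) nor Prxl2a (136 TMM CPM) stood apart in that library, and the cause was not tested.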

How the results depend on the processing

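Mice with the same replicate number were not treated as pairs (correlations of same-numbered deviations from -0.241 to 0.579, not all above 0.1). In late ND against untreated these ran from 0.0289 to 0.579 (mean 0.243). Such correlations cannot show whether the numbers carry a pairing, since shared library properties also enter them. With a replicate block 673, 607 and 0 genes were called in late ND against early ND, late ND against untreated and early ND against untreated, in place of 663, 406 and 0, and the members changed no call (late ND minus early ND -2.59 for Diaph3 and -2.48 for Prxl2a; late ND minus untreated -2.29 and -2.51). Genes called numbered 9045, 7553 and 3 with library totals, and 1439 and 810 in the late ND comparisons with the DESeq2 Wald test. With no filter beyond 1 count, 1282 were called in late ND against early ND. In the late ND comparisons 4 (4 higher, 0 lower) and 0 were called without the 3 libraries poor in 18S. A fit that adds the hemoglobin share called 0 and 0. Late ND against early ND gave 201 higher and 338 lower with DESeq2 size factors and 225 and 343 with TMM without hemoglobin genes and Rn18s-rs5, in place of 333 and 330. The members' late ND minus early ND differences were -1.70 (Diaph3) and -1.63 (Prxl2a) with library totals and -0.88 and -0.58 with the covariate. Late ND minus untreated was -2.72 and -2.75 without the libraries poor in 18S (adjusted p = 0.124 and 0.107, edgeR) and -1.04 and -0.80 with the covariate. The causes were not tested.

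The Spearman rho of Diaph3 and Prxl2a with the red cell score was 0.48 and 0.47 with library totals, 0.82 and 0.97 over deviations, 0.85 and 0.94 with the median of the score's genes, 0.92 for Diaph3 over the 10 libraries that were not late ND and again without the 2 farthest, and Pearson r was 0.99 for Prxl2a. With the cell cycle score it reversed to -0.34 and -0.66 with library totals, and was 0.37 and 0.51 over deviations, 0.65 and 0.68 over the 10, 0.67 and 0.62 with the median, and 0.86 for Prxl2a without the 2 farthest. With 1 mouse left out in turn, 145 (without late ND 3) to 1610 (without early ND 3), 0 to 593 and 0 to 0 genes were called, Diaph3 ranged from -2.92 to -2.41, from -2.71 to -2.16 and from -0.05 to 0.59 in the 3 comparisons, and Prxl2a from -2.92 to -2.40, from -2.93 to -2.28 and from -0.32 to 0.39. These rho values ranged over 0.93 to 0.96, 0.82 to 0.89 and 0.87 to 0.93, and stayed at 1.00 for Prxl2a with the red cell score. Leaving out early ND 1, 2 or 4 gave 431, 353 and 151 calls against early ND, and late ND 1, 4 or 5 gave 297, 198 and 246. Against untreated, 0 genes were called without untreated 3 or late ND 1, 4 or 5, 1 without late ND 2, 9 without late ND 3, and 157 and 199 without untreated 1 and 4.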
